A study of Mus musculus with 6 samples.

Results

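Hepatocyte identity rests on a small group of transcription factors that bind one another's genes and the genes of liver function. They include HNF4A, a nuclear receptor that keeps hepatocytes differentiated; the forkhead proteins FOXA1, FOXA2 and FOXA3, which open chromatin at liver enhancers; the leucine zipper proteins C/EBPalpha and C/EBPbeta, the first tied to metabolic genes and the second also to acute phase genes; ONECUT1 (HNF6) and the homeodomain protein PROX1, which act in liver development; and NR5A2 (LRH-1), a nuclear receptor of bile acid and sterol genes. The 9 genes Hnf4a, Foxa1, Foxa2, Foxa3, Cebpa, Cebpb, Onecut1, Prox1 and Nr5a2 were chosen by symbol, 9 of 56847 genes in the deposited table, and all 9 passed the filter on low counts that left 14215 genes. Poly(A) RNA was sequenced from whole mouse liver in 6 libraries, 3 of the normal diet group and 3 of the CDAHFD group. This high-fat diet lacks choline, supplies defined amino acids and is given to rodents to produce fatty liver disease with inflammation and scarring. The labels name no strain, sex, age, time on diet, genotype or pooling for either group, and do not say whether each library is a separate animal, so the p-values below measure no more than how these samples spread, which may be technical.

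Total counts ran from 21986215 to 25628531 per library. The summed level of 20 hepatocyte markers (Alb, Ttr and other plasma protein and enzyme genes) was 183700 to 205200 CPM on normal diet and 137300 to 151400 CPM on CDAHFD, where CPM is counts per 1000000 after scaling the libraries by TMM, a method that assumes that most genes do not change. With TMM 16 of these 20 markers fell and 0 rose in edgeR's test. Markers of several other cell types lay higher on CDAHFD. The summed level of 11 macrophage markers was 390.7 to 530.5 CPM on normal diet and 1756 to 1848 CPM on CDAHFD, that of 9 stellate cell and myofibroblast markers 298.6 to 364.1 and 1281 to 1518 CPM, and that of 8 cholangiocyte markers 8.28 to 11.7 and 22.6 to 34.7 CPM. Of the macrophage markers 9 rose, of the stellate cell markers 9, of 7 lymphocyte markers 5, of 3 neutrophil markers tested 3, of 5 lymphatic endothelial markers 3 and of 7 sinusoidal endothelial markers 0. Their part in the levels of the factors was not tested. In such bulk RNA, fewer hepatocytes and less RNA of a gene per hepatocyte cannot be told apart, which holds for every value below.

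The stretches before the annotated starts of the factor genes are shown first for the FOXA genes, of which 1 rose, 1 fell and 1 did not pass the test, and for Hnf4a and Cebpa, the most abundant members, which fell. The sequences are RefSeq's, on build GRCm38.p6, whereas the deposited counts were made on GRCm39, and all 9 members had an entry. Each line gives the 250 bases before the start, 5′ to 3′ on the gene's strand, with matches to searched motifs in capitals.
Foxa2, chr2:148046970-148047219, minus strand: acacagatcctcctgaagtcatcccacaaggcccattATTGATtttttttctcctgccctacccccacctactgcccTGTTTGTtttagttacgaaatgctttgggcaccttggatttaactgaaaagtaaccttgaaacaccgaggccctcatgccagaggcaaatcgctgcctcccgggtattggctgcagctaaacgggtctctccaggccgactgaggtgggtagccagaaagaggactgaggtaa
Foxa1, chr12:57546112-57546361, minus strand: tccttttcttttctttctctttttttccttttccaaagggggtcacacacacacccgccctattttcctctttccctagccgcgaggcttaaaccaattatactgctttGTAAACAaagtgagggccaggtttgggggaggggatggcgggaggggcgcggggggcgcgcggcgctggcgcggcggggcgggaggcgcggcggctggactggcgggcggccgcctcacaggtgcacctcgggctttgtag
Foxa3, chr7:19023540-19023789, minus strand: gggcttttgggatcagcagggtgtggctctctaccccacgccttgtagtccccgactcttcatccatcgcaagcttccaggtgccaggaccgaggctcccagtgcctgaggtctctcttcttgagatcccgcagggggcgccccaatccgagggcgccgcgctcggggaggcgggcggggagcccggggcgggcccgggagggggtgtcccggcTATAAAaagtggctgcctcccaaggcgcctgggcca
Hnf4a, chr2:163546905-163547154, plus strand, the downstream of 2 listed starts: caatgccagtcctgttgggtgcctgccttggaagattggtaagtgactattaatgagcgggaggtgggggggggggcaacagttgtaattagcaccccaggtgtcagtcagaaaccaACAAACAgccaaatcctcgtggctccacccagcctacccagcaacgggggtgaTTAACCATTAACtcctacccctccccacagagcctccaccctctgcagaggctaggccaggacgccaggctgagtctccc
Cebpa, chr7:35119043-35119292, plus strand: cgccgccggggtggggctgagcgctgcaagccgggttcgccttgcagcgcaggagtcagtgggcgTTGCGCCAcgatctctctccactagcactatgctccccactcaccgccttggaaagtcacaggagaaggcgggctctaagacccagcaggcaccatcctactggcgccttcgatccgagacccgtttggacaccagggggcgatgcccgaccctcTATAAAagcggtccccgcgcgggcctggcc

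Motifs were searched on both strands, and no matches overlapped in the sequences printed. The Foxa2 stretch, the most upstream of 3 listed starts, held ATTGAT, letters that ONECUT proteins bind, from -213 to -208 relative to the start. It also held the forkhead letters TGTTTGT from -173 to -167. The stretches before the other listed Foxa2 starts held neither, with TATAAA alone in chr2:148045465-148045714 and no match in chr2:148045949-148046198. Among 32851 promoters of the same length, 6.72% held ATTGAT and 5.84% held TGTTTGT. The Foxa1 stretch held the forkhead letters TGTTTAC on the opposite strand from -141 to -135, as did 3.17% of promoters. The Foxa3 stretch held a TATAAA match alone, from -36 to -31 (12.4% of promoters). The downstream Hnf4a stretch, which serves adult liver, held an HNF1 pattern, GTTAAT followed after 2 bases by TTAA, on the opposite strand from -80 to -69 (0.131% of promoters) and TGTTTGT on the opposite strand from -133 to -127. The upstream Hnf4a stretch, chr2:163506607-163506856 (not printed), held ATTGAT alone, on the opposite strand from -59 to -54. The Cebpa stretch held TTGCGCNA, letters of C/EBP sites, from -185 to -178 (0.673% of promoters) and TATAAA from -30 to -25. The HNF4 letters CAAAGTCCA (0.384% of promoters) and the NR5A2 letters CAAGGNCA (5.53%) had no match in the promoters of the 9 genes. A match is a run of letters and does not show binding, and the gene counts do not separate the starts of one gene.

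On CDAHFD, 5 of the 9 factors fell with TMM scaling, 1 rose and 3 did not pass. Hnf4a, Foxa3, Cebpa, Prox1 and Nr5a2 fell by 27.5% to 39.3%, Foxa2 rose 1.52-fold, and Foxa1, Cebpb and Onecut1 did not pass an adjusted p of 0.05 in edgeR's quasi-likelihood test over all 14215 genes (3 libraries per diet). Of all genes tested, 52.1% were called, 23.5% lower and 28.5% higher, so a call was common and the factors' share of calls is read beside that. The median log2 change of the 9 factors was -0.46, beside 0.01 over all genes tested. In CPM the diets did not overlap for 6 factors, 5 lower and 1 higher on CDAHFD, and for 60.6% of all genes (28.4% lower and 32.2% higher).

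**Figure D1:**
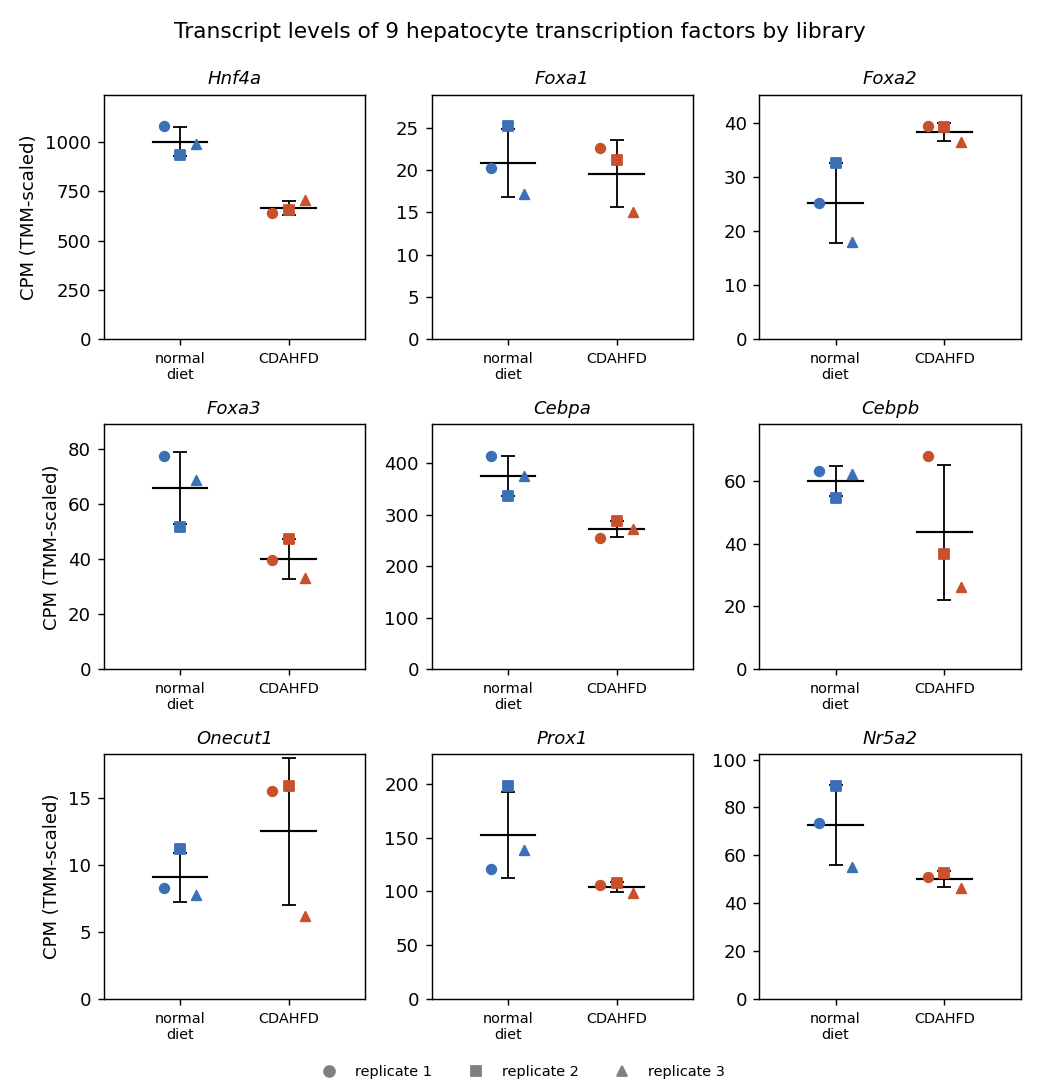
Level of each factor gene in CPM (TMM-scaled, axes from 0) in each library, by diet; symbols mark replicate numbers, horizontal lines the mean and bars the SD of 3 libraries. For Hnf4a, Foxa3, Cebpa, Prox1 and Nr5a2 each CDAHFD point lies below all normal diet points, for Foxa2 above them, and Foxa1, Cebpb and Onecut1 overlap.

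Hnf4a (ENSMUSG00000017950), the hub of the network, stood at 1080, 934 and 990 CPM in the 3 normal diet libraries and at 639, 655 and 706 CPM on CDAHFD. The groups were well apart and each was tight. The log2 change was -0.59 ± 0.11 (SE; adjusted p = 0.00109, edgeR), and the means were 1002 ± 73.7 and 666.8 ± 35.1 CPM (SD, n = 3). Leaving out any 1 library kept it lower, at -0.66 to -0.54.

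Cebpa (ENSMUSG00000034957), the main C/EBP gene of resting liver, had 413, 336 and 375 CPM on normal diet and 255, 287 and 272 CPM on CDAHFD. All CDAHFD libraries lay below all normal diet libraries, and the log2 change was -0.46 ± 0.11 (adjusted p = 0.00528, edgeR).

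Foxa3 (ENSMUSG00000040891), the FOXA gene with the highest TPM in both diets, had 77.5, 51.8 and 68.9 CPM on normal diet and 39.9, 47.4 and 33.0 CPM on CDAHFD. Normal diet replicate 2 came close to CDAHFD replicate 2, but the groups did not overlap. This was the strongest fall among the 9, with a log2 change of -0.72 ± 0.16 (adjusted p = 0.00341, edgeR).

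Prox1 (ENSMUSG00000010175) had 121, 198 and 139 CPM on normal diet and 106, 108 and 98.8 CPM on CDAHFD. The normal diet libraries were spread out, with replicate 2 highest, while the CDAHFD libraries were nearly level. Its log2 change was -0.55 ± 0.16 (adjusted p = 0.0137, edgeR), and -0.33 without normal diet replicate 2 (adjusted p = 0.0291). PROX1 also marks lymphatic endothelium, whose 5 markers summed to 56.0 to 78.0 CPM on normal diet and 91.0 to 105.0 CPM on CDAHFD. Most of this sum came from Flt4 (means 44.51 and 53.25 CPM) and Lyve1 (20.84 and 36.22 CPM). Pdpn (0.131 and 0.879 CPM), Mmrn1 (1.35 and 2.54 CPM) and Ccl21a (3.02 and 5.33 CPM) added little to it. Flt4 and Ccl21a did not pass (adjusted p = 0.102 and 0.0898, edgeR). The part of lymphatic endothelium in the level of Prox1 was not tested.

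Nr5a2 (ENSMUSG00000026398) had 73.7, 88.8 and 55.3 CPM on normal diet and 50.9, 52.8 and 46.4 CPM on CDAHFD. The lowest normal diet library lay just above the highest CDAHFD library. The log2 change was -0.54 ± 0.15 (adjusted p = 0.0116, edgeR), and -0.38 without normal diet replicate 2 (adjusted p = 0.0382).

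Foxa2 (ENSMUSG00000037025) was the member that rose. It had 25.2, 32.5 and 17.9 CPM on normal diet (513, 664 and 358 counts) and 39.4, 39.3 and 36.5 CPM on CDAHFD (972, 1098 and 937 counts). The CDAHFD libraries were almost level and all lay above the normal diet libraries, which varied more. The log2 change was 0.61 ± 0.18 (adjusted p = 0.0129, edgeR). It was 0.40 without normal diet replicate 3, the library with the lowest value (adjusted p = 0.0251).

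Foxa1 (ENSMUSG00000035451) did not pass. It had 20.3, 25.2 and 17.2 CPM on normal diet and 22.6, 21.2 and 15.1 CPM on CDAHFD, with the groups mixed, and a log2 change of -0.09 ± 0.18 (adjusted p = 0.687, edgeR). Its sign turned with total counts (0.23), with TPM (0.25 on log2(TPM + 1)) and in 2 of the fits with a library left out.

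Onecut1 (ENSMUSG00000043013) was the least abundant member in TPM, with 168, 228 and 155 counts on normal diet and 382, 443 and 159 counts on CDAHFD. These are 8.25, 11.2 and 7.75 CPM, and 15.5, 15.8 and 6.20 CPM. CDAHFD replicates 1 and 2 lay above all normal diet libraries and replicate 3 below all of them. The log2 change of 0.47 ± 0.30 did not pass (adjusted p = 0.208, edgeR), and without CDAHFD replicate 3 it was 0.76 (adjusted p = 0.00543). FOXA1, FOXA2 and ONECUT1 are also made in bile duct cells. The summed cholangiocyte markers were 27.3, 22.6 and 34.7 CPM in CDAHFD replicates 1 to 3. Their part in the level of Onecut1 or Foxa2 was not tested.

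Cebpb (ENSMUSG00000056501), which inflammatory signals induce in many cells, had 63.4, 54.7 and 62.3 CPM on normal diet and 67.9, 36.8 and 26.2 CPM on CDAHFD. CDAHFD replicate 1 exceeded every normal diet library, and the other two lay below them all. The log2 change was -0.46 ± 0.26 (adjusted p = 0.158, edgeR). Without CDAHFD replicate 1 it was -0.97 (adjusted p = 0.000972). C/EBPbeta is also made in myeloid cells. The summed macrophage markers were 1756, 1848 and 1839 CPM in CDAHFD replicates 1 to 3. In the same libraries 7 neutrophil markers summed to 19.6, 25.9 and 24.4 CPM (2.21 to 3.15 CPM on normal diet). Most of the CDAHFD sum came from Csf3r (mean 14.37 CPM), S100a9 (5.66 CPM) and S100a8 (2.35 CPM). Ly6g, Mpo, Elane and Retnlg were too low to be tested, and Mpo had 0, 4 and 6 counts on CDAHFD. The part of macrophages and neutrophils in the level of Cebpb was not tested.

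The lower calls depended on how the libraries were scaled. The higher call of Foxa2 was kept under each scaling, but the alternatives were no test of it. Total counts, TPM and the hepatocyte markers all moved the median gene up, by 0.29 to 0.62. Such a shift takes away lower calls and can only add to a rise seen with TMM. With total counts alone, 2 factors were higher and 1 lower. Foxa3 stayed lower (-0.40 ± 0.15, adjusted p = 0.0446), Foxa2 rose by 0.93 ± 0.18 and Onecut1 by 0.78 ± 0.28 (adjusted p = 0.0328). Of all genes 52.1% were called with total counts, 44.0% higher and 8.07% lower. The median gene moved by 0.34 there, beside -0.14 for the 9 factors. On the authors' TPM, Foxa2 alone was called, at 0.98 on the log2(TPM + 1) scale (adjusted p = 0.00212, limma). At an unadjusted p under 0.05 Foxa3 was lower and Onecut1 higher as well. For Hnf4a the CDAHFD libraries still lay below the normal diet libraries in TPM, at a log2 change of -0.22 (adjusted p = 0.104, limma). The only other factor without overlap in TPM was Foxa2, and the share of all genes without overlap was not computed in TPM. The share of called genes that were higher was 54.8% with TMM, 84.5% with total counts and 87.8% on log2(TPM + 1).

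Scaling to the hepatocyte markers compares the factors with other hepatocyte transcripts. Among these markers Alb, Ttr and Cps1 are also listed below as target genes of the factors. A fall shared by a factor and such markers is partly scaled out, so these fits cannot show it. With library sizes set by the summed markers, of which Alb and Trf took 58.4% to 64.7%, 2 of the 9 factors were higher and 0 lower, and 53.9% of all genes were called, 48.3% higher and 5.66% lower. At an unadjusted p under 0.05 the counts of factors were again 2 and 0. Foxa2 stood at 1.02 and Onecut1 at 0.86 ± 0.25 (adjusted p = 0.00521), while Hnf4a was at -0.17, Foxa3 at -0.31, Prox1 at -0.15 and Cebpa at -0.05, none past the threshold. With each marker weighted equally, a setting added after seeing the data, Foxa2 (1.21 ± 0.18), Onecut1 (1.05 ± 0.22) and Foxa1 (0.51 ± 0.19, adjusted p = 0.0147) were higher and 0 factors lower, also at an unadjusted p under 0.05. Of all genes 65.3% were called, 62.2% higher and 3.18% lower. Higher genes made up 89.5% of the calls with the summed markers and 95.1% with equal weights, and the median gene moved by 0.43 and 0.62. Hnf4a (0.03), Prox1 (0.05), Nr5a2 (0.07) and Cebpa (0.15) then lay on the other side of 0 and Foxa3 stayed below it (-0.11), none of them past the threshold. Across all 19 fits Foxa2 was called higher in 19, Foxa3 lower in 15, and Hnf4a, Cebpa, Prox1 and Nr5a2 lower in 14 each. These fits share libraries and mostly scaling, so the tallies are not independent. Hnf4a, Cebpa, Prox1 and Nr5a2 lost the call in every fit with total counts, hepatocyte markers or TPM. The fits that kept it used TMM, RLE or the scaling of DESeq2.

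**Figure D2:**
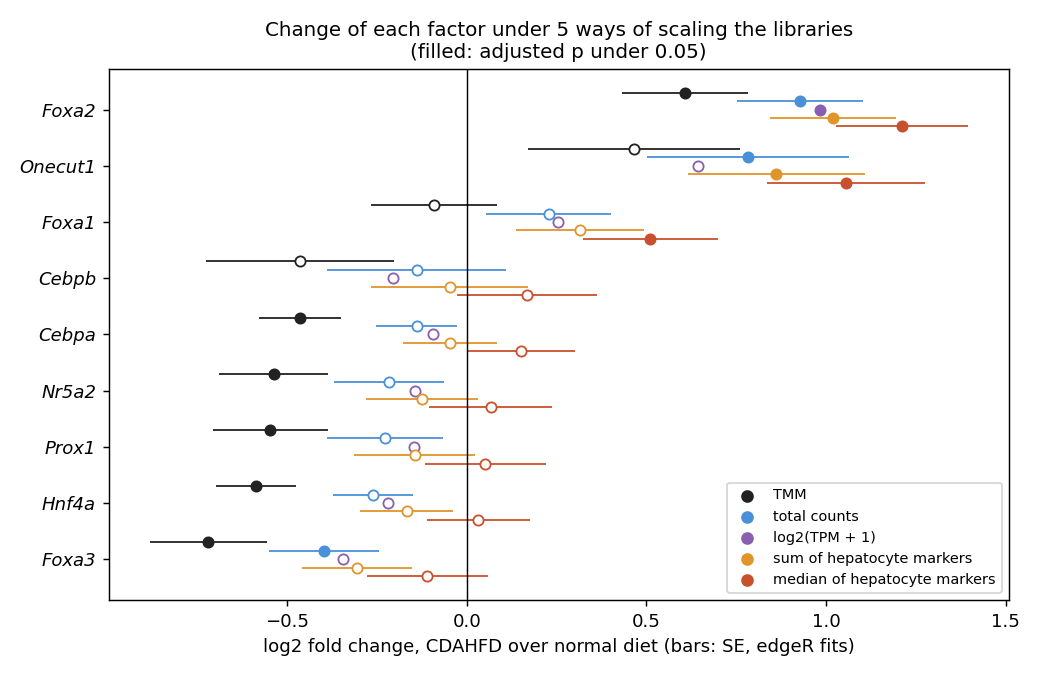
Log2 fold change of each factor, CDAHFD over normal diet, under 5 scalings of the libraries (colours); filled points pass an adjusted p of 0.05 and bars are standard errors of the edgeR fits. Foxa2 is filled and above 0 under all 5, whereas Hnf4a, Cebpa, Prox1 and Nr5a2 are filled below 0 with TMM and open with the other 4.

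Ratios of factors within a library do not depend on the scaling between libraries. Of 11 ratios computed from counts, 4 did not overlap between diets, and the share for pairs of other genes was not computed. The smallest two-sided p that an exact permutation test of 3 against 3 libraries can give is 0.1, so none could pass 0.05, and the adjusted p over the 11 ratios was 0.275 for these 4. The log2 ratio of Foxa2 to Hnf4a was -5.42, -4.84 and -5.79 in the normal diet libraries. It was -4.02, -4.06 and -4.27 in the CDAHFD libraries, a difference of 1.23 or a 2.35-fold higher ratio (exact permutation p = 0.1). Foxa2 to Foxa1 went from a mean of 0.25 ± 0.17 to 0.99 ± 0.25 (SD, n = 3), a difference of 0.74 (exact permutation p = 0.1). Foxa3 to Foxa2 went from 1.41 ± 0.66 to 0.05 ± 0.21, a difference of -1.36 (exact permutation p = 0.1). In TPM, Foxa3 stood at 89.5, 65.0 and 79.9 beside 25.02, 35.12 and 17.82 for Foxa2 on normal diet. On CDAHFD the 2 genes were close, at 61.6, 70.3 and 51.9 TPM beside 52.25, 50.04 and 49.34 TPM. Cebpa to Hnf4a was higher by only 0.12, from -1.42 ± 0.05 to -1.30 ± 0.10, without overlap.

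The other 7 ratios overlapped. Relative to Hnf4a, Prox1 (0.07), Nr5a2 (0.07) and Foxa3 (-0.13) shifted by less than the SD in either diet, with exact permutation p-values of 0.7 to 1 over these 3 ratios. Cebpb to Cebpa was tight on normal diet (-2.64 ± 0.06) and wide on CDAHFD (-1.91, -2.96 and -3.38), with a difference in means of -0.11 (exact permutation p = 0.9). Onecut1 to Hnf4a was -5.37, -5.37 and -6.83 on CDAHFD beside -7.03, -6.39 and -7.00 on normal diet (difference 0.95, exact permutation p = 0.2).

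**Figure D3:**
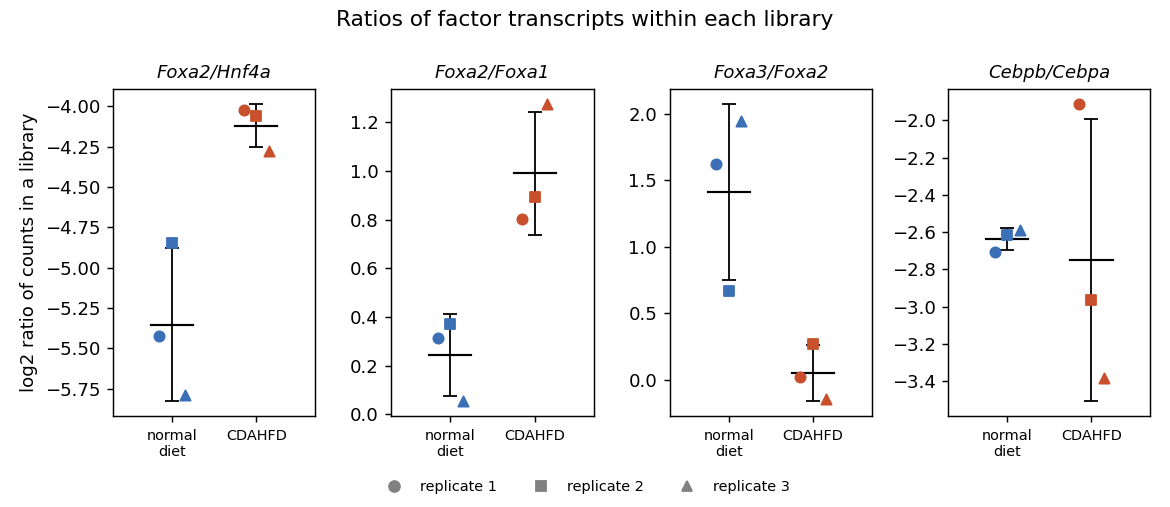
Log2 ratio of the counts of 2 factors within each library, by diet; symbols mark replicate numbers, lines the mean and bars the SD of 3 libraries. Foxa2/Hnf4a and Foxa2/Foxa1 lie higher and Foxa3/Foxa2 lower in each CDAHFD library, and Cebpb/Cebpa spreads from -3.38 to -1.91 on CDAHFD.

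Levels of different genes were compared in TPM, the authors' values per gene length. On normal diet the order was Hnf4a (501.9 ± 22.1 TPM, SD, n = 3), Cebpa (343.4 ± 22.6), Cebpb (96.6 ± 3.21), Foxa3 (78.1 ± 12.3), Prox1 (44.4 ± 14.0), Nr5a2 (30.02 ± 8.22), Foxa2 (25.99 ± 8.69), Foxa1 (15.3 ± 3.66) and Onecut1 (5.37 ± 1.37). Prox1, Nr5a2 and Foxa2 each overlapped the next gene in the order, and the other neighbours did not. On CDAHFD Foxa2 (50.5 ± 1.52 TPM) moved up past Prox1 (38.8 ± 1.03) and Nr5a2 (26.4 ± 1.10), without overlap with either. Its highest library (52.25 TPM) lay just above the lowest of Foxa3 (51.89 TPM, mean 61.3 ± 9.21). Hnf4a (431.5 ± 32.2 TPM) and Cebpa (321.3 ± 14.6) kept the top 2 places, and Cebpb (90.5 ± 45.5) overlapped Foxa3.

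**Figure D4:**
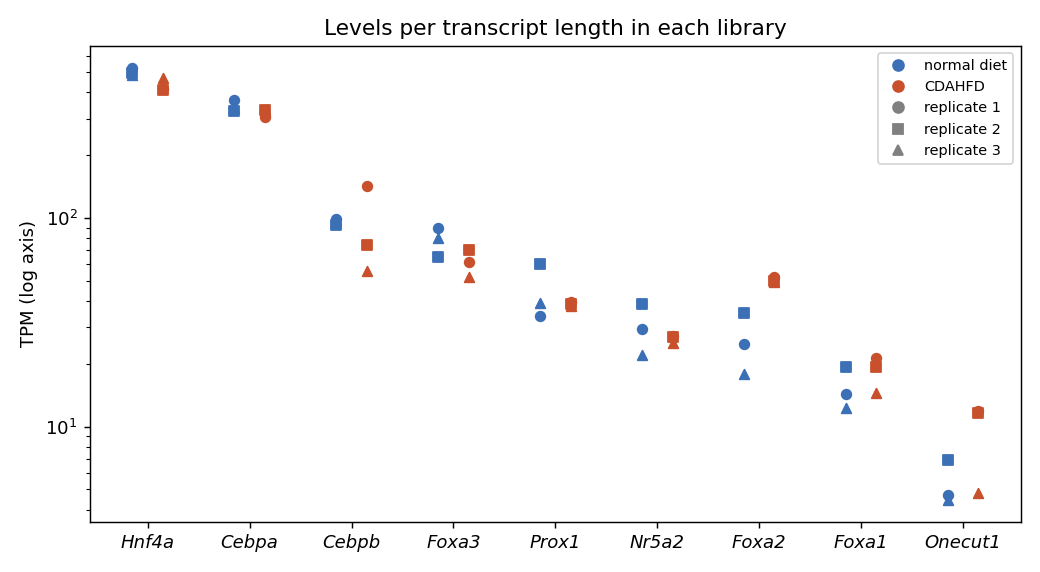
TPM of each factor in each library on a log axis, ordered by the normal diet mean; colours mark the diet and symbols the replicate number. Hnf4a and Cebpa stand above the rest in both diets, and Foxa2 moves from below Nr5a2 to above Prox1 on CDAHFD.

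The genes annotated antisense to 2 members fell as well. Hnf4aos, on the strand opposite Hnf4a, was counted 88, 90 and 94 times on normal diet. On CDAHFD it had 13, 18 and 7 counts. It fell by 3.20 ± 0.29 on the log2 scale (adjusted p = 4.35e-06, edgeR), 9.16-fold, beside 1.5-fold for Hnf4a. In TPM it went from 10.6, 11.7 and 11.5 to 1.72, 2.02 and 0.909. Prox1os had 119, 71 and 100 counts and then 53, 75 and 65, a change of -0.96 ± 0.23 (adjusted p = 0.00441, edgeR). The library kit marks strand, but the strand setting of the counting is not given in the sources used here, so reads of a gene and its antisense partner may not have been told apart.

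With TMM, the filter on low counts and diet as the only term, none of the close paralogs of the members passed. Of them, 2 were near the threshold. Of 9 listed, 6 were tested and 0 were called by edgeR, beside 52.1% of all genes, with a median of 0.13. At an unadjusted p under 0.05 edgeR and limma-voom each gave 2 lower (Cebpg and Onecut2) and 0 higher, and DESeq2 called Onecut2 lower after adjustment (adjusted p = 0.0303). Onecut2 had 81.5 ± 15.6 and 62.1 ± 9.78 CPM (log2 change -0.39 ± 0.16, adjusted p = 0.0531, edgeR). It passed with RLE scaling (0.0442), without a filter (0.00835), and without normal diet replicate 3 (-0.55, adjusted p = 0.0066) or CDAHFD replicate 1 (-0.51, adjusted p = 0.0358). Cebpg had 56.7 ± 6.94 and 47.3 ± 1.24 CPM (-0.26 ± 0.11, adjusted p = 0.0661, edgeR). It passed with RLE scaling (0.0485) and without normal diet replicate 3 (-0.34, adjusted p = 0.0261). Hnf4g had 1 to 2 counts per library on normal diet and 5 to 7 on CDAHFD, Nr5a1 had 1 count in 1 library, and Onecut3 had 0 counts. With total counts 1 of the 6 paralogs tested was called higher, with the summed hepatocyte markers 3 and with each marker weighted equally 4. Of all genes, 44.0%, 48.3% and 62.2% were called higher in these fits.

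Among other liver transcription factors calls went both ways. Of 12, 6 fell and 3 rose with TMM (total counts 3 lower and 4 higher, summed hepatocyte markers 1 and 5), and their median was -0.43. With each marker weighted equally the median was 0.18. Beside this list and those below, 23.5% of all genes were lower and 28.5% higher with TMM. The shares were 8.07% and 44.0% with total counts, and 5.66% and 48.3% with the summed hepatocyte markers. They were 3.18% and 62.2% with each marker weighted equally. Klf15, a glucocorticoid-responsive regulator of amino acid metabolism, fell by 0.85 ± 0.16. Mlxipl, which encodes the glucose-responsive factor ChREBP, fell by 0.73 ± 0.13, and Foxo1, an insulin-restrained factor, by 0.70 ± 0.13. Atf5, a factor of stress responses, stood at 126.4 ± 16.9 CPM on normal diet and at 262.4 ± 50.4 CPM on CDAHFD (1.05 ± 0.15).

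Among 12 nuclear receptor genes of liver 5 fell and 1 rose with TMM (total counts 3 lower and 2 higher, summed hepatocyte markers 2 and 2). The gene that rose was Nr2f1, named after its values were seen, at 0.412 ± 0.0596 and 0.869 ± 0.0192 CPM. It did not pass in DESeq2 (adjusted p = 0.119) or without normal diet replicate 2, CDAHFD replicate 1 or CDAHFD replicate 2 (adjusted p = 0.0657, 0.0614 and 0.0502, edgeR). Nr1i2 (PXR), 1 of the 5 lower genes at -0.30 ± 0.10, did not pass without normal diet replicate 1 or 3 or CDAHFD replicate 2 or 3 (adjusted p = 0.0506 to 0.0602, edgeR). With 1 library left out 4 to 7 of the list were lower and 0 to 1 higher. The list's median of -0.30 turned to 0.03 with total counts, and to 0.11 and 0.32 with the markers summed or weighted equally. Nr1h4, the bile acid receptor FXR, fell by 1.08 ± 0.13 from 199.3 ± 18.8 to 94.2 ± 15.9 CPM. Thrb, a thyroid hormone receptor gene, fell by 0.97 ± 0.14. Ppara, the fatty acid receptor gene, fell by 0.62 ± 0.10 and Nr1i3 (CAR) by 0.62 ± 0.16. Of these 4, Nr1h4 and Thrb were still lower with the summed hepatocyte markers (-0.68 and -0.56).

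Factors of bile duct and progenitor cells rose. Of 8 listed, 7 were tested, and 6 rose and 0 fell with TMM (7 higher with total counts and with the summed hepatocyte markers), with a median of 2.20. Sox9, a bile duct and progenitor factor, went from 3.89 ± 1.40 to 8.22 ± 1.53 CPM (1.08 ± 0.25). Sox4 rose by 2.43 ± 0.36, and the epithelial factor genes Ehf and Elf3 by 2.20 ± 0.33 and 3.07 ± 0.45 from low levels (0.806 and 0.232 CPM on normal diet). The cholangiocyte markers moved in the same direction, with 5 of 5 tested members higher, and their part in these values was not tested.

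Known target genes of the factors were read from the same fit, and the shares over all genes given above apply here too. Of the 20 hepatocyte markers 16 fell and 0 rose with TMM, with a median of -0.68. Whether the target lists differ from these markers was not tested. The lists overlap: Alb, Pck1, Tat and Tdo2 stand in both the FOXA and the C/EBPalpha list, Ttr in the HNF4A and FOXA lists, Gys2 in the HNF4A and C/EBPalpha lists and Cyp8b1 in the HNF4A and NR5A2 lists, and Alb, Ttr and Cps1 are also hepatocyte markers. Of 14 HNF4A targets 11 fell and 0 rose with TMM (total counts 7 lower and 1 higher, summed hepatocyte markers 6 and 1), with a median of -0.63. With each marker weighted equally 3 were lower and 3 higher. Otc of the urea cycle fell by 1.19 ± 0.15, Mttp of lipoprotein assembly by 1.05 ± 0.11 and the glycogen synthase gene Gys2 by 0.88 ± 0.13. Of 8 C/EBPalpha targets 8 fell (6 with total counts and 6 with the summed hepatocyte markers), with a median of -0.99, and 4 with each marker weighted equally. With 1 library left out 6 to 8 were called. The albumin gene Alb (-0.47 ± 0.15) did not pass without normal diet replicate 1 (adjusted p = 0.087), CDAHFD replicate 1 (0.0647) or CDAHFD replicate 3 (0.068). G6pc, the glucose-6-phosphatase gene, fell by 2.30 ± 0.19 from 385.1 ± 104.1 to 78.1 ± 12.1 CPM. The hepcidin gene Hamp fell by 0.99 ± 0.33, and did not pass without normal diet replicate 3 (-0.45, adjusted p = 0.114, edgeR) or CDAHFD replicate 3 (-0.81, adjusted p = 0.0926, edgeR), nor in DESeq2 (adjusted p = 0.119).

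Of 7 FOXA targets 5 fell and 1 rose (total counts 4 and 1, summed hepatocyte markers 3 and 2). The tyrosine aminotransferase gene Tat fell by 1.36 ± 0.19, Pck1 of glucose synthesis by 1.03 ± 0.17 and Tdo2 of tryptophan breakdown by 0.99 ± 0.16. The fetal liver gene Afp rose by 1.30 ± 0.23 and stayed scarce, at 5.00 ± 1.16 CPM on CDAHFD. Of 8 NR5A2 targets 6 fell and 1 rose (total counts 2 and 1, summed hepatocyte markers 2 and 1), and their median was -0.55. With each marker weighted equally the median was 0.06. Cyp7a1 and Cyp8b1 of bile acid synthesis fell by 1.60 ± 0.39 and 1.35 ± 0.26, and the sterol exporter gene Abcg5 by 0.62 ± 0.13. Scarb1, the HDL receptor gene, rose by 0.62 ± 0.12.

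Most of the listed acute phase genes that C/EBPbeta can drive were higher on CDAHFD. Of 12 listed 8 rose and 1, Crp, fell with TMM (10 and 0 both with total counts and with the summed hepatocyte markers), with a median of 1.84. Orm1, C3 and Itih4 did not pass. Lcn2 went from 3.23 ± 0.842 to 406.7 ± 72.5 CPM (6.98 ± 0.22) and Orm2 from 16.5 ± 2.26 to 389.4 ± 113.4 CPM (4.56 ± 0.21). Saa1 rose by 3.61 ± 0.43 and Saa2 by 4.51 ± 0.44. The Orm and Saa genes are close paralogs whose reads may have been split, and Lcn2 is also made by neutrophils and macrophages, whose markers moved the same way. With 1 library left out the acute phase list had 8 higher and 0 to 1 lower, the HNF4A list had 9 to 11 lower, the FOXA list 4 to 5, the NR5A2 list 5 to 6 and the biliary and progenitor list 5 to 6 higher.

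**Figure D5:**
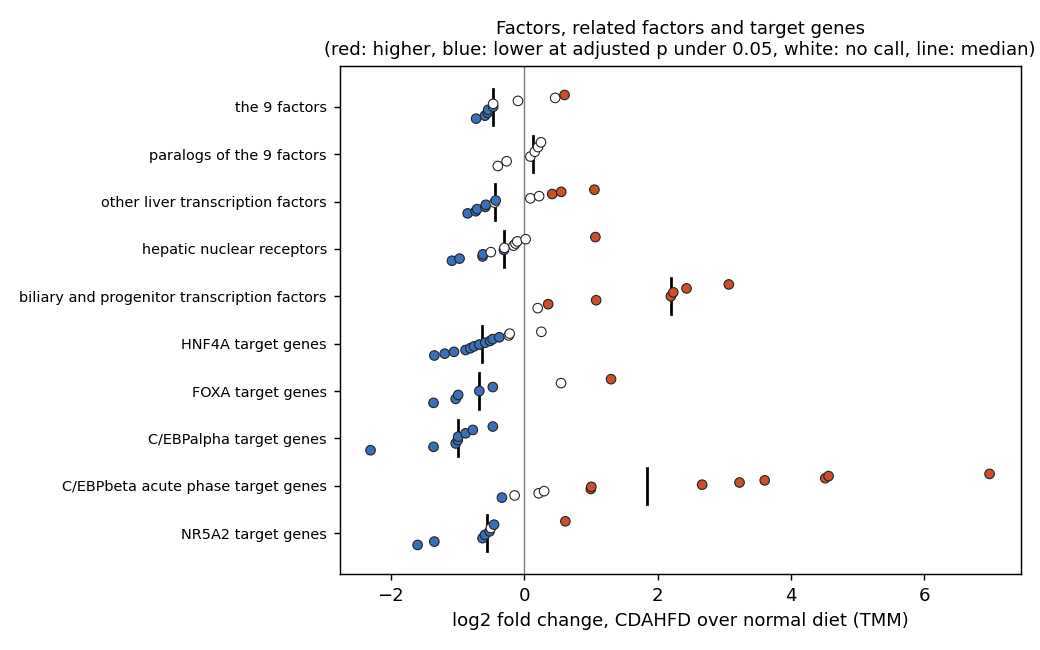
Log2 fold change with TMM of each tested gene in the group of 9 factors, their paralogs, other regulators and target genes (x axis); red points were called higher, blue lower, white not called, and vertical lines are medians. The C/EBPalpha targets are all blue, the biliary and progenitor factors lie at a median of 2.20, and the acute phase genes reach 6.98.

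The genes whose pattern over the 6 libraries was most like a member's were sought among 7905 genes of at least 10 CPM, by the root mean square difference of centred log2 CPM. For Hnf4a these were Mlycd (0.04), Mrps10 (0.04) and Dip2c (0.04). For Foxa2, the member with the largest rise, they were P4ha1 (0.08), Rps6ka3 (0.10) and Arhgap18 (0.10), and for Foxa3, with the largest fall, Cox7b (0.04), Sds (0.06) and Ddx3y (0.08). With 6 libraries in 2 groups this measure is set mostly by the difference between diets.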

How the data were processed

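The authors deposited whole-number read counts per gene, and TPM, which sum to 1000000 per library. Per the labels' protocols, RNA was extracted with TRIzol and 1 µg entered a stranded, ligation-based mRNA kit. Per the submitters' processing notes, STAR 2.7.11a and build GRCm39 were used, with the counting tool, annotation, strand setting and gene lengths not given in the sources used here. Columns were matched to samples by diet prefix and number. Symbols came from a gene name table (51911 of 56847 IDs).

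Counts were filtered with filterByExpr (minimum count 10), scaled by TMM and tested with edgeR 4.0.16 (quasi-likelihood, diet as the term, Benjamini-Hochberg over 14215 genes, threshold 0.05) in R 4.3.3. A standard error is the log2 change divided by the root of F. Alternatives used other scalings and filters, DESeq2 1.42.0, limma 3.58.1 (voom, and log2 TPM with 1 or 0.1 added), each library left out, and a replicate block. The pipeline was tested on simulated data. Libraries of 1 diet differed beyond sampling noise (chi-square per degree of freedom 19.3 to 40.5). The factors and the 18 gene lists were chosen with earlier results of these data known. Named genes are the 9 factors, up to 4 called genes of at least 1 CPM with the largest change per list (or the 2 most abundant), the 3 nearest patterns of 3 members, and antisense partners.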

Additional observations from a re-analysis of the deposited data

How the results depend on the processing

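Scaling decided most of the lower calls. Called genes numbered 4057 higher and 3347 lower with TMM, 6258 and 1147 with total counts, 6859 and 804 with the summed hepatocyte markers, 8837 and 452 with each marker weighted equally (added after seeing the data), 6449 and 897 on log2(TPM + 1), and 6433 and 897 on log2(TPM + 0.1). In the same order the 9 factors were 1 higher and 5 lower, 2 and 1, 2 and 0, 3 and 0, 1 and 0, and 1 and 0, and their median change was -0.46, -0.14, -0.048, 0.15, -0.14 and -0.15. Without a filter 2 factors were higher and 6 lower. The calls added there, of Cebpb (-0.47) and Onecut1 (0.46), came with smaller standard errors and not with larger changes. Those errors were 0.13 and 0.16 without the filter, beside 0.26 and 0.30 with it. The change of Foxa1 turned to 0.23 with total counts, 0.32 and 0.51 with the markers summed or weighted equally, and 0.25 and 0.27 with TPM. That of Cebpg turned to 0.061, 0.15, 0.35, 0.11 and 0.11, and that of Onecut2 to 0.018 and 0.21 with the markers. With each marker weighted equally the changes of Hnf4a (0.031), Cebpa (0.15), Cebpb (0.17), Prox1 (0.0515), Nr5a2 (0.066), Dip2c (0.022) and Mrps10 (0.029) turned too. RLE, TMM without the 20 most abundant genes, the filter at 1 CPM, DESeq2 and limma-voom kept 1 factor higher and 5 lower.

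With 1 library left out, 3530 to 4104 genes were called higher and 2871 to 3416 lower. Of the 9 factors 1 to 2 were higher and 5 to 6 lower, with a median of -0.58 to -0.38, and the change of Foxa1 ran from -0.23 to 0.054. The differences between diets in the log2 ratios that changed sign ran from -0.27 to 0.045 for Foxa3/Hnf4a, -0.40 to 0.36 for Cebpb/Hnf4a, -0.14 to 0.32 for Prox1/Hnf4a, -0.10 to 0.28 for Nr5a2/Hnf4a and -0.53 to 0.20 for Cebpb/Cebpa. The other 6 ratios kept their sign, and TPM or 0.5 added to the counts turned none of the 11.

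The labels number the libraries 1 to 3 in each diet, but deviations from the diet means correlated at -0.13, 0.05 and 0.19 between libraries of equal number, so the numbers were not taken to pair them. With the replicate block 4046 genes were higher and 3311 lower, and 1 factor was higher and 6 lower, since Cebpb passed as well (-0.57, adjusted p = 0.0353, edgeR), while Hamp did not (-0.88, adjusted p = 0.0548) and the paralog Onecut2 did (-0.39, adjusted p = 0.0111). With 155 to 443 counts per library, counting error weighs most on Onecut1 among the 9 factors.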
